A study of Mus musculus with 5 samples.

Results

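The genes described here were those whose signal was high after 1 and 2 days of retinoic acid and low both in embryonic stem (ES) cells and at the end of motor neuron differentiation. They were selected on the measured values. A probe was taken when the lower of its Day3 and Day4 values exceeded the higher of its ES and Day7 values by 2 or more on the log2 scale, which is 4-fold, and when it was well above background on both Day3 and Day4. Of 55681 mouse probes, 149 met this rule and 109 of these had a gene symbol. They stood for 101 symbols, and leaving out 5 Hox genes gave 96 genes of 19858, with the probe of largest margin kept for each gene. The margin, which is the difference the rule used, ran from 2.00 to 7.12 with a median of 2.41, so the low ES and Day7 values and the high Day3 and Day4 values below are a description and not a finding. The Day2 array took no part in the selection.

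Each time point was measured once, on a one-colour Agilent array, from wild type male mouse cells. ES was untreated ES cells. Day2 was embryoid bodies, which are floating aggregates of differentiating ES cells, after 8 hours of retinoic acid. Day3 and Day4 were embryoid bodies after 1 and 2 days of it. Day7 was the sample labelled as motor neurons, 5 days after retinoic acid was first given, with embryoid bodies named as its tissue and no sort of the cells named. The labels state that retinoic acid and Sonic hedgehog were applied between days 2 and 5. As no time point was repeated, there was no replicate error and no test, and a difference is called here only by a fixed size, 2-fold. The number of arrays limits the precision of every value.

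Values are given as log2 signal relative to the 75th percentile of the same array, so that 0 is the level of a gene at that percentile and negative values lie below it. Levels of different genes were read by different probes and are not compared. A probe that was not well above background on an array has only an upper bound there, and a difference against it is written as "at least". Against a dim ES probe a difference was given only where the other array lay above the bound, so it could only be a rise. In whole embryoid bodies, fewer cells of a type and less RNA per cell cannot be told apart.

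Of the 96 genes, 54 were well above background on ES, 93 on Day2, 61 on Day7 and 50 on all 5 arrays, while 31 were above background on neither ES nor Day7. No member was saturated on any array. With dim ES and Day7 values raised to the lowest level that counted as well above background, 71 of the 96 kept a margin of 2 or more, and after quantile normalization, which makes the arrays' distributions equal, 84 did. The number selected was 32 when the background was corrected with normexp before quantile normalization and 27 with no normalization. In 24 genes a further probe was detected on Day3 and Day4, and in 8 of these 24 another probe also had a margin of 2 or more. In 20 of the 24 every such probe was higher on Day3 and Day4 than on ES and Day7, by any amount. In the other 4 genes, Sp8, Fzd7, Ptges and Dnaja4, the best further probe had a margin of -0.01, -0.36, -0.70 and -0.50.

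The Day2 array stood apart. On it 86.7% of probes were well above background, against 57.5% to 65.7% on the other arrays, and so were 65.6% of the 96 control probes for ERCC spike-in transcripts, against 4.17% to 9.38% on the others. Repeated spots of the same probe had a median standard deviation of 0.11 on Day2 and 0.06 to 0.07 on the others. Day7 alone lay on a second slide, which means that for this array the slide and the day of differentiation cannot be told apart. The median over probes with a gene symbol that were above background on any array was 0.16 higher on Day2 than on ES on the deposited scale, where the other arrays were 0.13 to 0.15 higher than ES. After quantile normalization Day2 was 0.04 lower (-0.04) and the others 0.12 to 0.16 higher. Counts of members changed on Day2 are therefore given beside those of all genes and on both scales, while folds of single genes are on the deposited scale unless the quantile scale is named. Among the members, 17 of the 57 genes 2-fold above ES on Day2 on the deposited scale were not so, or had no value, on the quantile scale, and 2 passed on the quantile scale alone.

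**Figure D1:**
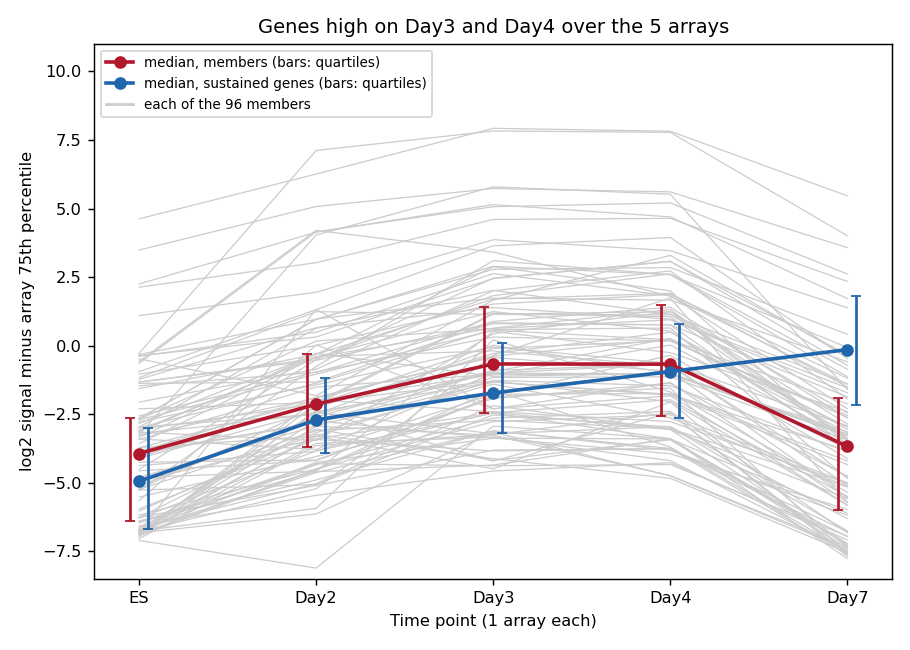
Log2 signal relative to the array's 75th percentile (vertical axis) on the 5 arrays (horizontal axis, 1 array each). Grey lines are the 96 genes, red points their median and blue points the median of 337 sustained genes (own values on Day3, Day4 and Day7 at least 4-fold above that of ES, dim ES probes included), with bars from the lower to the upper quartile. The members' median was -3.93 on ES, -2.14 on Day2, -0.67 on Day3 and Day4 and -3.67 on Day7, and that of the sustained genes went from -4.94 on ES to -0.14 on Day7.

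Retinoic acid, made from vitamin A, enters cells and activates nuclear receptors that bind DNA at paired half-sites and switch on their targets. Among these targets are genes that hold the signal in check by degrading retinoic acid or by turning its precursor back into stored retinol. In the embryo the signal caudalizes the neural tube, and together with Sonic hedgehog it sets up the progenitor domains of the spinal cord, of which each carries its own set of transcription factors.

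The largest margin, 7.12, was that of Cyp26a1, a gene of retinoic acid handling. The other retinoic acid genes had margins from 2.38 (Cdx1) to 3.77 (Stra8). Of 20 genes in a list of retinoic acid responsive genes 5 were members, or 25%, against 0.483% of all genes. All 5 were already at least 2-fold above ES on Day2 on both scales, as were 17.7% of all genes on the deposited scale and 10% on the quantile scale.

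Cyp26a1, the enzyme that degrades retinoic acid, read -3.25 on ES, 4.03 on Day2, 5.79 on Day3, 5.52 on Day4, then -1.60 on Day7. Its Day2 value was 156-fold above ES, and its Day7 value was still 3.15-fold above ES. It had the largest margin of all genes, 7.12.

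Stra8, a retinoic acid target that germ cells need to enter meiosis, read -0.28, 7.12, 7.83, 7.78 and 4.01 from ES to Day7. Its Day2 value was 168-fold above ES. Stra8 was therefore near its highest level after 8 hours, and on Day7 it remained 19.5-fold above ES.

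Dhrs3, a reductase that returns retinaldehyde to retinol, read -0.65, 4.15, 5.07, 5.20 and 2.61, with Day2 27.8-fold above ES. Stra6, the membrane receptor through which cells take up retinol, was not well above background on ES at -5.28 and read -0.76 on Day2, 3.10 on Day3, 2.59 on Day4, then -0.06 on Day7. It was at least 16.2-fold above ES on Day2, yet 3.34 log2 units below its lower later value. Cyp26a1, Stra8 and Dhrs3 were nearer to theirs, at -1.49, -0.66 and -0.91 against the lower of Day3 and Day4.

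Cdx1, a caudal homeobox gene that patterns the body axis, followed another course. It read -0.58 on ES, 4.20 on Day2, 3.41 on Day3, 1.81 on Day4, then -1.40 on Day7. A list of 20 measured caudal and axial progenitor genes held 3 members (15%, against 0.483% of all genes), Cdx1, Cyp26a1 and Sp8. Cdx1 was highest after 8 hours, 27.5-fold above ES, and its Day3 value was 3.05-fold above that of Day4.

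The 250 bases before the transcription starts of the members were read from RefSeq promoter sequences of mouse build GRCm38.p6, in which 71 of the 96 genes had an entry. They were searched on both strands for the DR5 element, a direct repeat of the retinoic acid receptor half-site with 5 bases in between, and for the single half-site AGGTCA, which can lie within a DR5. The DR5 occurred before 3 of the 71 genes, Cyp26a1, Hbb-y and Ppbp, and before 0.104% of 27025 genes in the table. The single half-site occurred before 16 of the 71 genes, or 22.5%, and before 15.8% of all genes. A DR2 spacing was met before Slc25a21 alone among the members (0.204% of all genes) and a DR1 spacing before none of the 71 (0.196% of all genes). These matches are descriptions of sequence, and binding was not measured here. The promoters of the retinoic acid genes Cyp26a1 and Stra8 and of the 2 other genes with a DR5 are shown 5′ to 3′ on the gene's strand, with capitals marking the half-sites of the DR5 or, for Stra8, the half-site AGGTCA.
Cyp26a1, chr19:37697558-37697807, plus strand: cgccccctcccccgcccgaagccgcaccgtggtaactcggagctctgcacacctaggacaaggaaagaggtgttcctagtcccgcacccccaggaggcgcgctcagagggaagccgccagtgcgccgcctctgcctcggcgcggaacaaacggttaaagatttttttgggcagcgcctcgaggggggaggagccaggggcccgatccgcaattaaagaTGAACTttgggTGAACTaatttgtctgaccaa
Stra8, chr6:34920698-34920947, plus strand: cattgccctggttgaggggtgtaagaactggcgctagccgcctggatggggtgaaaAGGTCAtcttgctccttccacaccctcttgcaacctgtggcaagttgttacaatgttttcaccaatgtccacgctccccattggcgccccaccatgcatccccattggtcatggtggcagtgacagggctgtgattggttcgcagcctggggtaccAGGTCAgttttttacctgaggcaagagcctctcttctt
Hbb-y, chr7:103853208-103853457, minus strand: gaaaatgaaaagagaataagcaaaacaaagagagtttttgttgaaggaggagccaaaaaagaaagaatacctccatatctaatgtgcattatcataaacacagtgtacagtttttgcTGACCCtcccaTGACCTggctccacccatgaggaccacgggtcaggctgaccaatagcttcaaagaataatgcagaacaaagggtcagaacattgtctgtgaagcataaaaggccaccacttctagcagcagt
Ppbp, chr5:90768268-90768517, plus strand: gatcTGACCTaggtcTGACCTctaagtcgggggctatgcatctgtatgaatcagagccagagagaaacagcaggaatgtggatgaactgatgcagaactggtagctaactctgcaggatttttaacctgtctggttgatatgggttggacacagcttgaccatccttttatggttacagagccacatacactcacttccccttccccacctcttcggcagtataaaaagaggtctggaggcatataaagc
The DR5 of Cyp26a1 began 32 bases before the start, that of Hbb-y 133 and that of Ppbp 246 bases before it. Stra8 held its half-sites 194 and 38 bases before the start. On Day2 Cyp26a1 was 156-fold above ES, Hbb-y at least 16.0-fold and Ppbp at least 2.77-fold, the last 2 being bounds that set no order, and on the quantile scale the bound of Ppbp was 0.15 on the log2 scale.

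**Figure D2:**
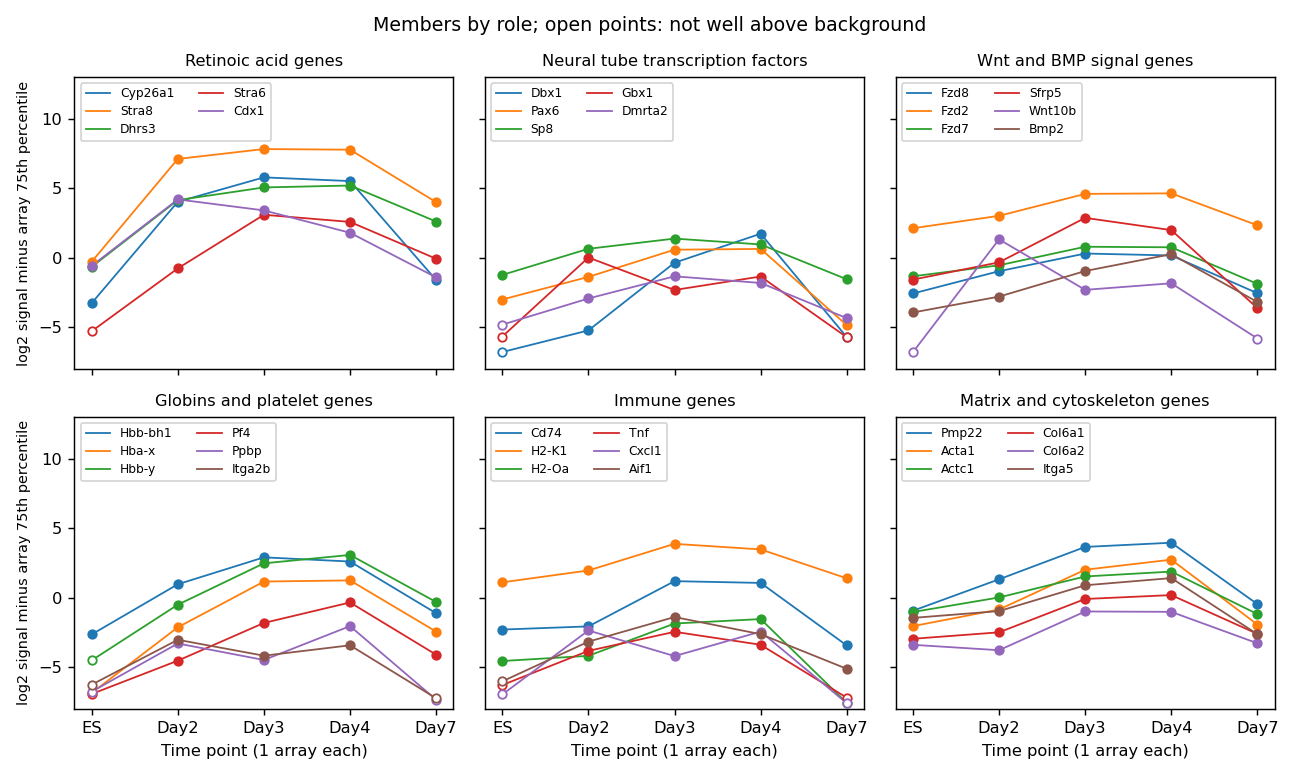
Log2 signal relative to the array's 75th percentile (vertical axis) on the 5 arrays (horizontal axis) for 34 of the 96 genes in 6 panels by role, 1 line a gene. Filled points were well above background and open points were not. From ES to Day2, Cyp26a1 went from -3.25 to 4.03 and Stra8 from -0.28 to 7.12, whereas Stra6 stood at -0.76 on Day2 and 2.59 on Day4, and Dbx1 went from -5.22 on Day2 to 1.74 on Day4.

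Transcriptional regulators made up 13 of the 96 genes, and 7 of the 11 with a Day2 value were at least 2-fold above ES then (17.7% of all genes), or 5 of 10 after quantile normalization (10% of all genes). Of these calls 4 of the 7, and 2 of the 5, were bounds against a dim ES probe, and among all genes dim on ES with a value 57.9% passed, or 56.9% on the quantile scale. Dbx1, a homeobox gene that marks an intermediate progenitor domain of the neural tube giving rise to interneurons, had the second largest margin, 5.35. It was not well above background on ES (-6.77) or Day7 (-5.70) and read -5.22 on Day2, -0.35 on Day3 and 1.74 on Day4. The larger step of Dbx1 lay between Day2 and Day3, at 29.2-fold, and its Day4 value was a further 4.25-fold above that of Day3. Pax6, a paired-box factor of neural progenitors, read -2.99, -1.37, 0.59, 0.64 and -4.84 from ES to Day7. Day2 was 3.09-fold above ES for Pax6, and Day7 was 3.60-fold below ES. A further Pax6 probe also had a margin of 2.00. Sp8, a zinc finger factor of the neural tube and limb, read -1.23, 0.65, 1.39, 0.97 and -1.54, though its other probe had no margin.

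Gbx1, a homeobox gene of the hindbrain and spinal cord, was dim on ES (-5.66) and Day7 (-5.71) and read 0.03 on Day2, -2.31 on Day3 and -1.34 on Day4. It was therefore at least 27.8-fold above ES on Day2 and 2.33 higher there than on Day3. Dmrta2, a regulator of the dorsal forebrain, read -2.92 on Day2, -1.33 on Day3 and -1.80 on Day4 and was dim on ES.

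The other regulators are known mainly from tissues outside the neural tube, and they are named after their values were seen, apart from those in a list or singled out by the naming rule. Ripply3, a co-repressor of T-box factors in the pharynx, read -3.15, -3.46, 0.44, 1.24 and -3.45, so that Day2 was no higher than ES while Day3 was 3.90 above Day2. Meox1, a homeobox gene of the somites, was dim on ES at -4.80 and read -4.57 on Day2, 0.52 on Day3, -0.25 on Day4, then -2.41 on Day7. For both, the step to the later level lay between Day2 and Day3. Sox17, a factor of the endoderm and of blood vessels, read -3.21 on ES, -2.49 on Day2 and -0.68 on Day4, with Day2 below Day3 by 1.49 log2 units (Day2 minus Day3 of -1.49), and was dim on Day7. Prrx2, a homeobox gene of mesenchyme, read -0.36, 0.32, 2.45, 3.08 and -0.72. Nfix, a nuclear factor of late progenitors and muscle, was dim on ES and read -2.25 on Day2, -0.29 on Day3, 0.49 on Day4, then -3.05 on Day7. All of these other regulators but Isx were higher on Day3 than on Day2. Isx read -3.24 on Day2 and -4.12 on Day3, though on the quantile scale its Day2 minus Day3 was -0.60. Tlx2, a homeobox gene of the enteric nervous system, Osr2, a zinc finger gene of palate and limb, and Isx, an intestinal homeobox gene that represses vitamin A uptake, had margins of 2.02, 2.30 and 2.06, and Osr2 and Isx were dim on both ES and Day7.

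Secreted signals and their receptors gave 11 genes, of which 8 of 10 with a value were at least 2-fold above ES on Day2 on either scale, against 17.7% of all genes on the deposited and 10% on the quantile scale. Bmp2 passed on the deposited scale alone and Fzd2 on the quantile scale alone. Of 44 genes in a Wnt pathway list 4 were members, or 9.09% (0.483% of all genes). Frizzled receptors bind Wnt ligands at the cell surface, and 3 of them were members. The other Frizzled genes of the list, Fzd1, Fzd3, Fzd5, Fzd9 and Fzd10, had margins of -0.96, -0.25, -0.40, -0.85 and 0.21. Fzd8 read -2.56, -0.96, 0.31, 0.18 and -2.54 from ES to Day7. Fzd2 read 2.13, 3.02, 4.60, 4.64 and 2.34, and Fzd7 read -1.33, -0.53, 0.80, 0.76 and -1.87. For all 3 receptors the low ES and Day7 and the high Day3 and Day4 values were set by the rule. Day3 and Day4 were within 1.10-fold of each other in each. On Day2, which the rule did not use, Fzd8 was 3.04-fold above ES, Fzd2 1.86-fold and Fzd7 1.73-fold. A second Fzd7 probe had a margin of -0.36, and a second Fzd2 probe had one of 1.22.

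Sfrp5, a secreted inhibitor that binds Wnt proteins, read -1.56, -0.32, 2.88, 2.00 and -3.61. Its Day7 value was 4.14-fold below ES. Wnt10b, a ligand, was dim on ES (-6.78) and Day7 (-5.80) and read 1.33 on Day2, -2.30 on Day3 and -1.83 on Day4, at least 68.7-fold above ES on Day2. Unlike the receptors, Wnt10b had its highest value on Day2, 3.63 above Day3. Adgra2, an adhesion receptor that works with Wnt signalling in brain vessels, was level from Day2 to Day4 at 1.24, 1.14 and 1.12. Sost, an extracellular Wnt inhibitor of bone, was dim on ES, Day2 and Day7.

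Bmp2, a bone morphogenetic protein, read -3.93, -2.79, -0.95, 0.27 and -3.17 and was 2.31-fold higher on Day4 than on Day3. It was the single member among 30 genes of a BMP and TGF-beta list, or 3.33% (0.483% of all genes). Wfikkn1, a secreted antagonist of growth differentiation factors, read -2.83, -0.31, 1.70, 1.91 and -1.50. Mdk, the heparin-binding growth factor midkine, read 4.62, 6.26, 7.92, 7.82 and 5.46. Serpinf1, a neurotrophic factor secreted by epithelia, read -3.57, -0.42, 0.64, 1.32 and -3.39 and was 8.93-fold above ES on Day2, with a second probe of margin 3.41. Lists of the Sonic hedgehog, Notch or FGF pathways, proneural factors and of cell cycle genes held no member.

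Globin, haem and platelet genes gave 7 members. Of the 7, 1 was well above background on ES, and 5 of 6 with a value were at least 2-fold above ES on Day2 (17.7% of all genes), or 3 of 5 after quantile normalization (10% of all genes). Of these calls 4 of the 5, and 2 of the 3, were bounds against a dim ES probe, and among all genes dim on ES with a value 57.9% passed, or 56.9% on the quantile scale. Hbb-bh1, an embryonic beta-like globin, read -2.65, 0.96, 2.89, 2.59 and -1.13, and Day2 was 12.2-fold above ES. Hba-x, the embryonic zeta globin, was dim on ES (-6.86) and read -2.14 on Day2, 1.15 on Day3, 1.23 on Day4, then -2.45 on Day7. Hbb-y, the embryonic epsilon-like globin next to Hbb-bh1 among the array's genes, was dim on ES (-4.52) and read -0.51, 2.46, 3.07 and -0.32 on the later arrays. The high Day3 and Day4 values of the 3 globins were set by the rule. On Day2, which it did not use, all 3 were at least 6.20-fold above ES. On the quantile scale the least of these differences was the bound of Hba-x, 1.91 on the log2 scale. On Day7 the 3 globins were still at least 2.87-fold above ES. Globin genes are alike in sequence, and the binding of their probes to each other's transcripts was not tested.

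Other markers of blood and vessel cells moved in both directions. In a list of 18 such genes the 3 globins were the members, or 16.7% (0.483% of all genes). Among the other 15, 4 of the 13 with a value were at least 2-fold above ES on Day3 and 4 were below, and their median was -2.06 on ES, -2.30 on Day2, -2.81 on Day3, -3.14 on Day4, then -2.43 on Day7. The 4 higher on Day3 were Gata2, Hba-a1, Cdh5 and Cd34. The share of all genes changed 2-fold between ES and Day3 was not counted, so these numbers have no comparison. Hba-a1, an adult alpha globin, read -3.29 on ES, -0.10 on Day3, -0.01 on Day4 and -1.73 on Day7, which gave it a margin of 1.63, and Cd34, a surface marker of blood precursors and vessels, dim on ES and Day7, had a margin of 1.89. Gata1, the erythroid transcription factor, named after its values were seen, read -2.17, -2.45, -2.81, -3.05 on ES to Day4 and was dim on Day7. Tal1, which is needed to form blood, read -1.42, -1.38, -2.43, -3.14 and -2.04. Neither of these was higher on Day3 or Day4 than on ES.

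Alas2, which starts haem synthesis in red cells, was faint throughout, at -5.10 on Day2, -3.81 on Day3 and -3.76 on Day4, and dim on ES and Day7. Pf4 and Ppbp, platelet chemokines that lie side by side among the array's genes, were dim on ES. Pf4 read -4.54, -1.82, -0.35 and -4.11 from Day2 to Day7, and Ppbp read -3.30, -4.49, -2.05 and was dim on Day7. Both were higher on Day4 than Day3, by 2.77-fold and 5.41-fold. Itga2b, the platelet integrin, was dim on ES and Day7 and read -3.04 on Day2, -4.18 on Day3 and -3.43 on Day4.

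Immune genes gave 7 members, of which 2 of 7 were at least 2-fold above ES on Day2 (17.7% of all genes), or 2 of 6 after quantile normalization (10% of all genes). On the deposited scale these were Cxcl1 and Aif1, both bounds against a dim ES probe, and 57.9% of all genes dim on ES with a value passed 2-fold too. On the quantile scale they were Cxcl1 and H2-K1. Cd74, the invariant chain that escorts class II molecules, read -2.30, -2.07, 1.18, 1.05 and -3.45, and thus changed between Day2 and Day3. H2-Oa, a class II subunit, read -4.56, -4.19, -1.87, -1.55 and was dim on Day7. H2-K1, a class I molecule, read 1.10, 1.95, 3.86, 3.46 and 1.38. Madcam1, an endothelial address molecule for lymphocytes, read -0.38, 0.49, 2.63, 1.82 and -2.30.

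The inflammatory genes Tnf and Cxcl1 and the macrophage gene Aif1 were dim on ES. Tnf read -3.83, -2.46 and -3.40 from Day2 to Day4, Cxcl1 read -2.37, -4.21 and -2.45, and Aif1 read -3.17, -1.40 and -2.63. Cxcl1 was 3.40-fold higher on Day4 than Day3 and Aif1 2.35-fold higher on Day3, so these genes did not share 1 order. Ptprc, the general white cell surface marker, was well above background on ES (-4.32) and Day2 (-4.20) and dim on Day3, Day4 and Day7.

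Matrix, adhesion and cytoskeleton genes were the largest group, with 19 members, 16 of them well above background on all 5 arrays. The group was made after the values were seen. In the gene lists, 1 of 33 extracellular matrix genes (Mdk, 3.03%) and 0 of 27 cell adhesion and cadherin genes were members, against 0.483% of all genes. Day2 was at least 2-fold above ES in 11 of the 19 (17.7% of all genes), or 10 of 17 after quantile normalization (10% of all genes). Pmp22, a membrane protein of myelin and epithelia, read -0.95, 1.31, 3.64, 3.94 and -0.47, with Day2 4.80-fold above ES. Acta1 and Actc1, the actins of skeletal and heart muscle, read -2.06, -0.86, 2.00, 2.73 and -1.94, and -1.04, 0.01, 1.52, 1.87 and -1.19. Both muscle actins returned on Day7 to within 1.11-fold of their ES level.

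Col6a1 and Col6a2 are neighbouring genes for chains of collagen VI. Col6a1 read -2.97, -2.50, -0.10, 0.18 and -2.61, and Col6a2 read -3.40 on ES, -3.79 on Day2, -1.03 on Day4 and -3.29 on Day7, with Day3 within 1.02-fold of Day4. On Day2 they lay on opposite sides of ES, by 0.46 for Col6a1 and -0.39 for Col6a2 on the deposited log2 scale, and on the quantile scale by -0.40 and -1.94. Among other matrix genes, Emilin2 read -1.33, -0.47, 1.82, 2.62 and -0.86, and Npnt, a ligand of integrins, read -4.25, -4.17, -1.92, -1.37 and -4.76. Itga5, the fibronectin receptor subunit, read -1.46, -0.97, 0.88, 1.40 and -2.64. None of these 5 genes was 2-fold above ES on Day2, whereas Emid1, another matrix gene, was 3.31-fold above it.

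Krt20, a keratin of the gut lining, read -2.69, 0.17, 0.63, 0.94 and -1.72, and Day2 was 7.24-fold above ES. Baiap2l1, which bends membranes to form protrusions, read -3.09, -0.41, 1.24, 0.53 and -3.59, with Day2 6.41-fold above ES. Dsc2, a desmosomal cadherin, read -2.71, -1.04, 0.56, 0.22 and -2.12, whereas Dsp, the desmosomal plaque protein, was dim on ES and Day7 and at least 1.13-fold above ES on Day2. Prtg, an immunoglobulin superfamily protein of the early neural tube, read 2.25, 4.14, 5.14, 4.70 and 1.72. Espn, an actin bundler of hair cells, was level between ES and Day2 at -1.37 and -1.32 and read 0.83 and 0.76 afterwards. Plau, the urokinase protease, dim on ES and Day7, was 4.20-fold higher on Day3 than on Day4.

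Of 17 receptors, channels, carriers and enzymes 6 were well above background on all 5 arrays, so most of this group rests on Day3 and Day4 values. On Day2, 8 of 15 with a value were at least 2-fold above ES (17.7% of all genes), or 4 of 11 after quantile normalization (10% of all genes). Of these calls 5 of the 8, and 3 of the 4, were bounds against a dim ES probe. There 57.9% of all genes with a value passed, or 56.9% on the quantile scale. Npr1, the receptor of atrial natriuretic peptide, was dim on ES and Day7 and read -4.34, -2.64 and -2.39 from Day2 to Day4. Cyp4f15, a fatty acid hydroxylase, was dim on ES and Day7 as well and read -5.03, -2.19 and -3.05. Slc25a21, a mitochondrial carrier, and Gabrp, a subunit of a receptor for the transmitter GABA, were likewise dim on both, with margins of 3.09 and 2.99. Cyp1b1, a cytochrome that oxidises steroids and retinoids, was the 1 gene at least 2-fold below ES on Day2 on the deposited scale and 1 of 6 on the quantile scale. It read -0.48, -1.82, 1.66, 3.29 and -0.40, so Day2 was 2.53-fold lower than ES and Day4 3.10-fold higher than Day3. Maob, which degrades amines, read -3.71, -3.30, -1.26, -1.46 and -3.86, and Ptges, which makes prostaglandin E2, read -3.28, -1.92, -0.38, 0.23 and -2.96. Ptges lies next to Prrx2 among the array's genes, and both were highest on Day4. Otud7b, a deubiquitinase just inside the threshold, had its highest value on Day2, 8.42-fold above ES.

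The remaining 17 genes have mixed or poorly described roles, and 11 of 14 with a value were at least 2-fold above ES on Day2 (17.7% of all genes), or 5 of 9 after quantile normalization (10% of all genes). Of these calls 5 of the 11, and 1 of the 5, were such bounds. BC048679 read -2.97, 0.63, 2.02, 1.15 and -2.86, with Day2 12.2-fold above ES, and Dleu7 read -2.66, 0.97, 1.74, 1.66 and -0.59, with Day2 12.4-fold above ES. Their Day2 folds were near that of the embryonic globin Hbb-bh1, but by Day2 they had covered 87.6% and 84.0% of the rise from ES to the lower of Day3 and Day4, against 68.8% for Hbb-bh1. The gene listed as ccdc198 was dim on ES, Day2 and Day7 and read 0.21 on Day3 and -1.68 on Day4, 3.72-fold higher on Day3. Sly, a Y-linked gene of a multicopy family expressed in sperm precursors, was dim on the same 3 arrays and read -2.93 and -3.39, and none of its 4 other probes was detected on Day3 and Day4, so its level is uncertain. Tmem200b, dim on ES and Day7, read -3.65, -3.24 and -2.45 from Day2 to Day4.

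The Day2 level, which the selection did not use, lay between ES and the later level in most genes. A Day2 minus ES difference could be given for 87 of the 96, with a median of 1.53 on the log2 scale against 0.06 for all genes. The members without one were all dim on ES, so this median leaves out dim genes with no rise. In the 54 measured on both arrays it was 1.48, against -0.08 for all such genes. Of the 87, 57 (65.5%) were at least 2-fold above ES, of which 22 were bounds, against 17.7% of all genes with a value. At least 2-fold below ES was 1 gene, Cyp1b1 (6.37% of all genes). After quantile normalization 42 of 73 (57.5%) were at least 2-fold above ES, with a median of 1.13, against 10% of all genes, and with normexp 28 were. On the quantile scale 6 of the 73 were at least 2-fold below ES (13.6% of all genes), namely Col6a2, Cyp1b1, Npnt, Ripply3, H2-Oa and C1qtnf6. The rule required a low ES value of the members and not of all genes, so a part of any excess in Day2 minus ES is fixed by the selection, and the shares are given as a description.

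How much of this belonged to dim probes was read by detection. Among the 54 genes well above background on both ES and Day2, 35 (64.8%) were at least 2-fold above ES on Day2, against 9.42% of all 14220 such genes. Of the 42 dim on ES, 33 had a value and 22 of these (66.7%) passed, against 57.9% of all such genes with a value. Of all 5584 genes dim on ES, 2941 had a value and 1703 passed. Genes dim on Day2 or under the ES bound there had no value, so both shares count only rises. The greater share of probes and spike-in controls above background on Day2 moved with the count in dim genes, and its part there was not tested.

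**Figure D3:**
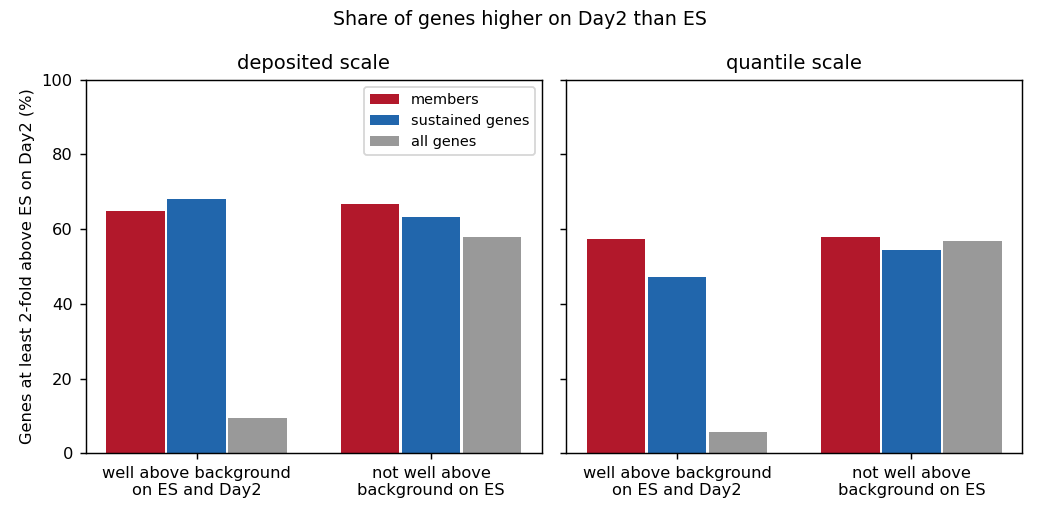
Share of genes at least 2-fold above ES on Day2 (vertical axis, percent of genes with a value) among the 96 members, the 337 sustained genes and all genes, for genes well above background on ES and Day2 and genes dim on ES, on the deposited (left) and quantile (right) scale. In genes measured on both arrays the members stood at 64.8% and all genes at 9.42% on the deposited scale, and in genes dim on ES at 66.7% and 57.9%.

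The same measure was taken in genes that rose and stayed up, which were also chosen low on ES. These were 337 genes whose own values on Day3, Day4 and Day7 were all at least 4-fold above that of ES, without a bound for the 193 of them dim on ES, of which 10 were also members because their Day3 and Day4 values exceeded Day7 by a further 4-fold (among them Stra8, Dhrs3, Stra6, Hba-x and Hbb-y). Of 296 with a Day2 value, 194 (65.5%) were at least 2-fold above ES, with a median of 1.33. In genes measured on both arrays the share was 64.8% of the members and 68.1% of the sustained genes, and 57.4% and 47.2% on the quantile scale. The difference between the sets was not tested.

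Against the later arrays, Day2 was at least 2-fold below the lower of Day3 and Day4 in 53 of the 96 genes (4.64% of all genes) and at least 2-fold above it in 9 (23.5% of all genes). After quantile normalization 71 were below (14.6% of all genes), and with no normalization 24 were. The rule required Day3 and Day4 to be high, so nothing is read from these counts against all genes. The part of the rise from ES to the lower of Day3 and Day4 that had been covered by Day2 had a median of 59.4% on the deposited scale and 40.8% on the quantile scale with own values used for dim probes, and of 48.2% and 41.7% in the 54 genes measured on ES. Of these 54, 3 lay below ES on Day2, 9 had covered up to 25%, 16 between 25% and 50%, 12 between 50% and 75%, 10 between 75% and the full rise, and 4 had reached or passed the lower later value. On the quantile scale 11 of the 54 lay below ES and 4 had reached the later value, so the position of single genes on Day2 depended on the scale.

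The 14 genes with their highest value on Day2 show this dependence most clearly. Of them 11 were dim on ES and 10 on both ES and Day7, and on the quantile scale 5 remained highest on Day2, namely Wnt10b, Gbx1, Cdx1, Adgra2 and Otud7b. Wnt10b and Gbx1 were dim on ES, and Cdx1, Adgra2 and Otud7b were measured on all 5 arrays. Among genes measured on both arrays, the largest Day2 differences from ES were those of Stra8, Cyp26a1, Dhrs3 and Cdx1. Wnt10b, Gbx1, Stra6 and Hbb-y had bounds of at least 16.0-fold, which have no order among these. The lowest differences among genes measured on both arrays were those of Cyp1b1 (-1.34), Col6a2 (-0.39), Ripply3 (-0.31), Espn (0.05), Npnt (0.08) and Cd74 (0.23). On the quantile scale they were -1.78, -1.94, -1.67, -0.28, -1.69 and -0.41, so that only Espn and Cd74 of the 6 were within 2-fold of ES on both scales.

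**Figure D4:**
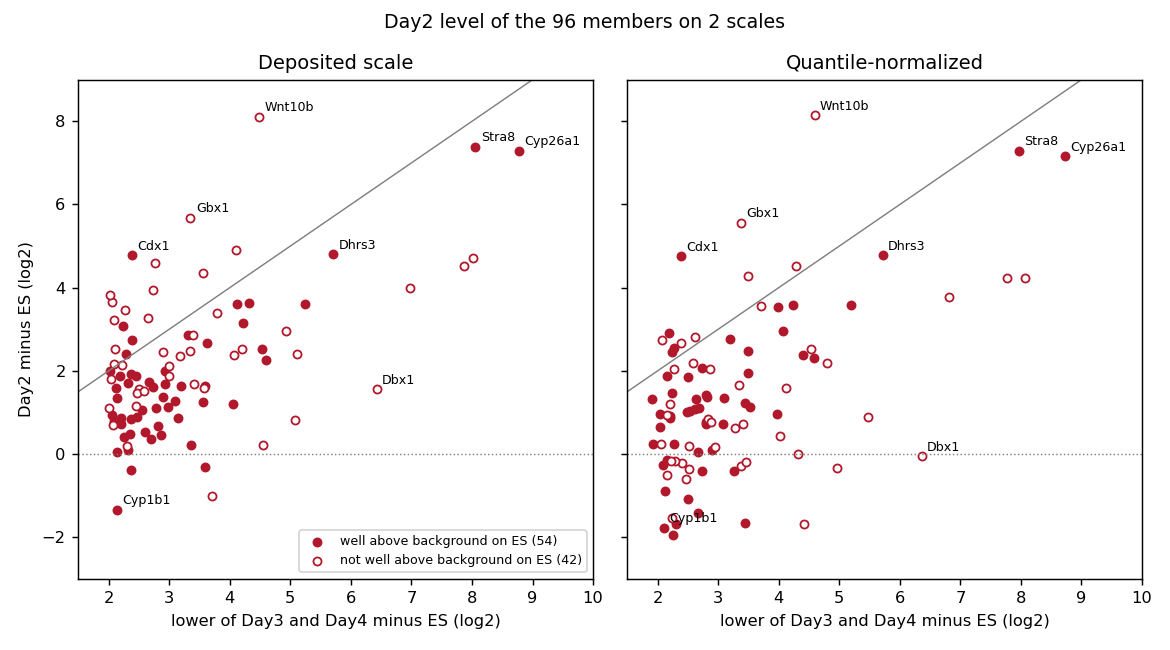
Day2 minus ES (vertical axis, log2) against the lower of Day3 and Day4 minus ES (horizontal axis, log2) for the 96 genes, on the deposited scale (left) and after quantile normalization (right). Filled points were well above background on ES (54) and open points were not (42), where own values are drawn without a bound. The grey line marks equal change. Cyp26a1, Stra8 and Dhrs3 lay 1.49, 0.66 and 0.91 under the line on the left, Cdx1 lay above it, and on the right 24 points lay below 0, of which 11 were measured on ES, against 4 on the left, of which 3 were.

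Day3 and Day4 were alike in most of the genes. The median Day3 minus Day4 difference was 0.02. At least 2-fold higher on Day3 were 7 genes (4.36% of all genes), namely Plau, ccdc198, Cdx1, Sost, Cpn2, Aif1 and Gprc5c, and at least 2-fold higher on Day4 were 7 (4.4% of all genes), namely Ppbp, Dbx1, Cxcl1, Cyp1b1, Pf4, Bmp2 and Emid1. With no normalization these counts were 23 and 5. Since both arrays entered the rule, nothing is read from these counts. Among the sustained genes, 84 of 337 were at least 2-fold higher on Day4 and 7 on Day3.

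Day7 was compared with ES in the 62 genes with a value. At least 2-fold higher on Day7 were 12, or 19.4% (19.9% of all genes), and at least 2-fold lower were 10, or 16.1% (31.3% of all genes). The first count was 6 in genes measured on both arrays, and the second was 3 with normexp. The median difference was 0.18 against -0.35 for all genes. Among genes measured on both arrays, Stra8 was the farthest above ES at 19.5-fold, and Espn at 5.12-fold and Sfrp5 at 4.14-fold were the farthest below. Of the genes dim on 1 of the arrays, Stra6 was at least 26.1-fold and Hbb-y at least 18.3-fold above ES, and Sox17 was at least 3.71-fold below. Both arrays were used by the rule, so nothing is read from these counts, and Day7 lay alone on its slide.

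The working label of these genes as progenitor genes was checked against lists of markers. Of 22 neural progenitor genes 1 (4.55%), Pax6, was a member, and of 17 genes of ventral spinal progenitor domains 2 (11.8%), Dbx1 and Sp8, were members, against 0.483% of all genes. Sox1, an early neural factor, read -3.38, -2.52, -1.03, -0.83 and -2.78, which gave it the nearest margin, 1.75, among the other genes of the first list. Many progenitor genes were not lower on Day7. Nes, an intermediate filament of neural progenitors, read 3.49, 1.91, 3.09, 3.61 and 4.34, and Sox11 read 1.82, 1.67, 1.25, 2.67 and 5.07. Olig2, the factor of motor neuron progenitors, read 0.77, -0.98, -1.89, 1.83 and -2.40, with its highest value on Day4. The 96 genes are therefore named here by when they were high and not as progenitor genes. Among the markers of other tissues, 1 of 23 mesoderm genes (Meox1) and 1 of 23 endoderm genes (Sox17) were members, or 4.35% of each list against 0.483% of all genes, and none came from lists of dorsal neural tube, neural crest, motor neuron, pan-neuronal, interneuron, glial or pluripotency genes.

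The threshold fell inside a continuous range. Just inside it lay Otud7b (margin 2.03), Cpn2 (2.03), Tlx2 (2.02), S100g (2.02) and Mab21l4 (2.00), and just outside it H1f10 (2.00, below the limit before rounding), Tspan9 (1.99), Zfp839 (1.97), Slc6a13 (1.96) and Grifin (1.96). Of the 96 genes, 42 had a margin of 2.5 or more and 24 of 3 or more.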

How the data were processed

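Total RNA of 5 samples, 1 per time point, was labelled with Cy3 and hybridised to Agilent mouse arrays. The authors extracted intensities with Agilent Feature Extraction 10.5.1, per the labels. The deposited table holds log2 values, and each column equalled the log2 of the scanner files' processed signal minus the array's 75th percentile within 0.01 for at least 99.4% of probes. The deposited scanner files gave the signal intensity and the detection flags (a probe was taken as well above background when most of its spots were). The scanner files carried no gene-name column, so symbols came from matching the probes' accessions, without versions, to RefSeq (GRCm38.p6), and 26300 of 55681 probes matched 1 symbol each. The members and the gene lists were chosen with earlier results of these data known, and the role groups after their values were seen.

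For each gene the probe of largest margin was used, with probes detected on Day3 and Day4 taken first, and this choice also set the values of all genes. Differences were taken on the deposited log2 scale. A dim value was replaced by the higher of itself and the lowest value of probes well above background on that array, and no difference was given where both arrays were dim or the bound had no direction. No test was possible with 1 array per time point. Genes were named when they were members in a list, among the 25 largest margins, among 5 on either side of the threshold, among the 10 largest or smallest Day2 differences, or 2-fold different between Day3 and Day4. Further members were named where their function was described, after their values were seen. Alternatives were quantile normalization, none, normexp with offset 50 (limma 3.58.1, R 4.3.3), other detection filters, floors, probes and thresholds. The code of the selection was run on simulated data whose members were well clear of the limit and not dim on ES. That run checked the code only and does not bear on dim or borderline genes. Tables were made in Python 3.11.15 (pandas 2.3.3, numpy 2.4.6).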

Additional observations from a re-analysis of the deposited data

Results flagged for a closer look

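Outside the gene table, 40 probes met the same rule but matched no gene symbol. Of these, 24 were designed to genome intervals and 16 to other transcripts or contigs, and several of the intervals were covered by more than 1 probe. Their transcripts were not identified here, and their margins ran from 2.02 to 5.51.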

How the results depend on the processing

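The number of genes selected was 27 with no normalization, 32 with normexp and quantile normalization (all 32 among the 96), 202 at a margin of 1.5 and 24 at a margin of 3. Quantile normalization selected 89 genes, 84 of them among the 96. The count at least 2-fold above ES on Day2 was 28 with normexp, 35 in genes well above background on both arrays and 26 at 4-fold. The median Day2 minus ES difference was 1.13 with quantile normalization, 1.73 with none, 0.70 with normexp, 1.84 on own values with no floor and 1.25 when all probes of a gene were averaged. The count at least 2-fold below the later arrays on Day2 was 24 with no normalization and 24 at 4-fold. The count higher on Day3 than Day4 was 23 with no normalization, 3 with normexp, 21 at 1.5-fold and 1 at 4-fold, and the count higher on Day4 was 19 at 1.5-fold and 2 at 4-fold. The count higher on Day7 than ES was 6 in genes well above background on both arrays and 7 at 4-fold, and the count lower on Day7 was 3 with normexp and 2 at 4-fold. The causes of these moves were not tested, apart from stricter limits, which pass fewer genes by construction. The other 48 values stayed within 1.5 times their count or within the spread of repeated spots, and no median changed sign. The setting with RefSeq symbols alone was the same as the main one. Day7 was alone on its slide, so no fit with slide as a block could be made, and leaving out replicates was not possible with 1 array per time point. No paired analysis was possible because no group had more than 1 array. Signal over background limits the 42 genes dim on ES and the 35 dim on Day7, whose values there are bounds.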
